A study of Drosophila melanogaster with 12 samples.

Results

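The genes described here are named for proteins of the cytosolic ribosome and were measured in heads of adult Drosophila melanogaster. They were taken as every probe set with a single gene symbol that begins with RpL, RpS or RpLP followed by a digit, and 37 probe sets of 37 genes met that rule, out of 10844 named genes on the array. The symbols assign 22 of them to the large subunit (RpL and RpLP) and 15 to the small subunit (RpS). The 22 include 4 genes whose symbols end in -like, which were counted by name and need not encode proteins of the ribosome. RefSeq's gene table holds 92 symbols of this form, and the other 55 were not analysed here, among them RpS6. Each of the 37 genes had 1 probe set, so no choice between brighter and dimmer probe sets arose.

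Every sample came from y w flies, which carry mutant alleles of yellow (body pigment) and white (eye pigment). The LD group is a day of 12 h light and 12 h darkness that came after 3 days of the same cycle, and the DD group is the next day, in constant darkness. Each group holds 6 arrays, at hours 2, 6, 10, 14, 18 and 22 from actual or subjective lights-on, and each array holds RNA from a pool of roughly 100 to 200 sieved heads. The labels give neither the sex nor the age of the flies. Levels are the authors' RMA values on the log2 scale, with array medians of 5.37 to 5.40. Across probe sets, which are not independent replicates, r was 0.973 to 0.995 for the pairs of arrays. Of 10 listed photoreceptor and head markers, 7 were measured. On the 12 arrays Arr2 lay between 12.03 and 12.52 log2, Arr1 between 10.31 and 11.92 and trp between 9.01 and 10.32. The gene trpl lay between 9.37 and 10.57, inaD between 7.28 and 8.70, rdgA between 7.13 and 7.33 and inaC between 6.02 and 7.13.

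A ribosome reads messenger RNA with its small subunit and joins amino acids with its large subunit. Its proteins are needed in matched amounts, and their genes are known for strong, coordinated expression that growth signals such as the TOR pathway control. In flies, loss of 1 copy of many of these genes slows development and thins the bristles, the Minute phenotype. Some ribosomal proteins of the fly have a second gene used mainly in the germ line, such as RpS5b in the ovary and RpL22-like in the testis.

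The members' levels were lower on 1 array than on the rest. On LD 14, the array taken early in the night of the light/dark day, 26 of the 37 members lay more than 0.2 log2 below their own median over the 12 arrays, where 8.46% of all 13966 probe sets did. They were 15 of the 22 large subunit genes and 11 of the 15 small subunit genes, so both subunits shared the low array. The median deviation was −0.64 log2 there, and 1 member, RpL3, lay more than 0.2 log2 above its median (11.2% of all probe sets). LD 14 was the lowest of all 12 arrays for 21 members, against 9.95% of all probe sets. The markers listed for flight muscle had their highest mean there. Of 8 listed, 6 were measured, and their mean was 7.63 log2 on LD 14, against 6.56 to 7.33 on the other LD arrays and 6.35 to 6.98 in DD. Act88F, the flight muscle actin, was at 7.93 on LD 14 and at 5.32 to 7.16 on the others, and Mlc2 and up also peaked on LD 14. The other 3 peaked elsewhere, TpnC41C on LD 6 (10.22, against 9.69 on LD 14), TpnC4 on LD 6 (2.60, against 2.56) and fln on LD 2 (3.48, against 3.34). TpnC4 and fln were dim on all arrays, below the array medians of 5.37 to 5.40. Other marker lists also had an extreme mean on LD 14. The 7 measured photoreceptor and head markers were highest there, at 9.56, a mean also reached on DD 10. The 8 measured ovary markers were lowest there, at 7.95, against 7.96 on DD 18. The lists for neuron, testis and accessory gland, midgut and fat body had their extremes on other arrays. The part of muscle, photoreceptor or ovary RNA in the low levels of LD 14 was not tested.

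**Figure D1:**
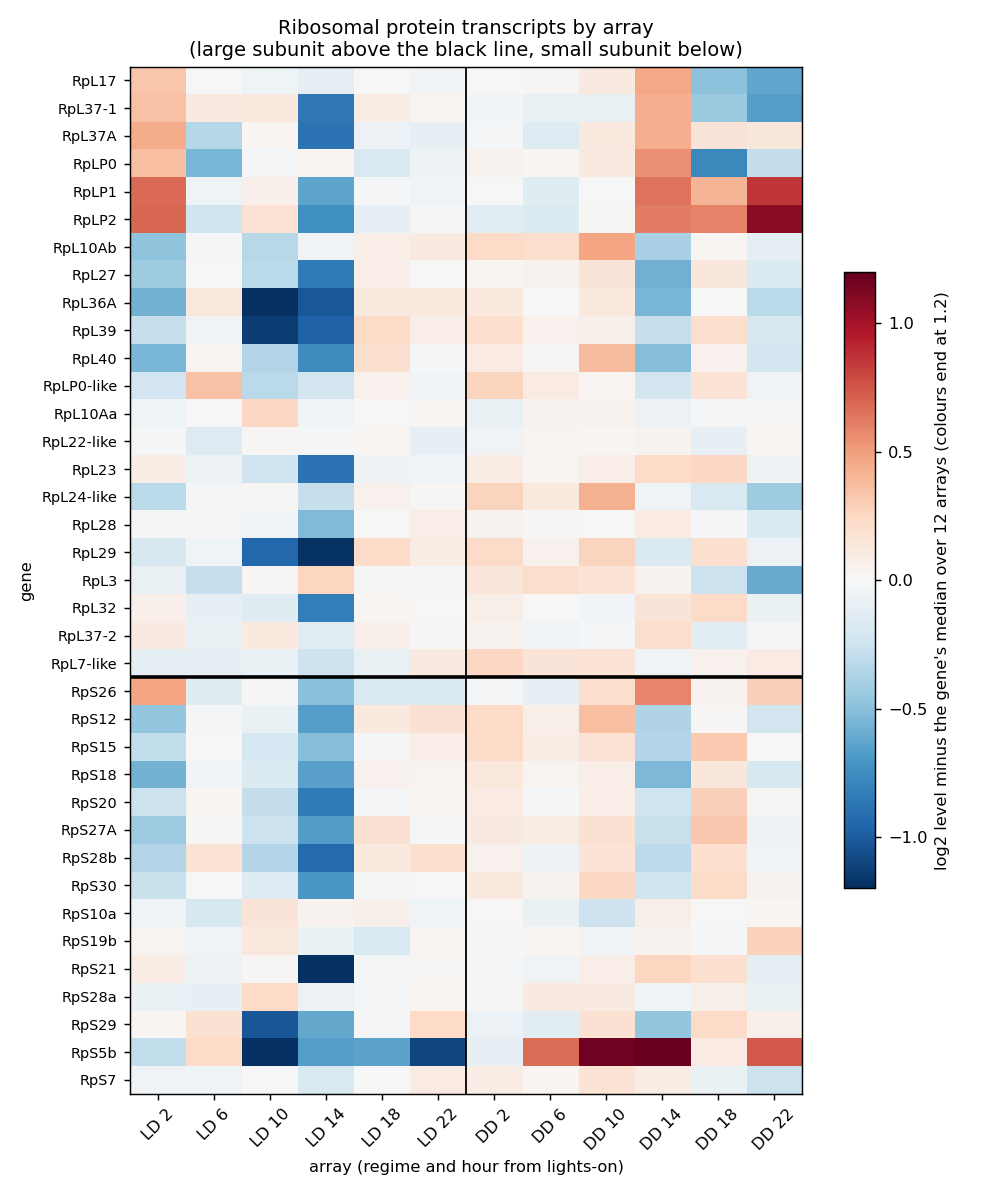
Log2 level of each of the 37 members on each array minus the gene's own median over the 12 arrays, red above and blue below, with the large subunit over the horizontal line and the small subunit under it, and LD left of the vertical line and DD right of it. LD 14 is blue for 26 members by more than 0.2 log2, while LD 2 and DD 14 are red for one group of genes and blue for another.

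RpS21, a small subunit protein whose loss causes overgrowth of blood-forming organs in fly larvae, departed furthest on LD 14. Its levels in LD were 11.26, 11.11, 11.18, 9.90, 11.15 and 11.18 log2 at hours 2 to 22, and those in DD were 11.16, 11.13, 11.25, 11.43, 11.36 and 11.06. Apart from LD 14 all values lay within 11.06 to 11.43, so a single array made most of its range of 1.52 log2. RpL32, widely used in fly work as a reference transcript under its older name rp49, showed the same form. It stood at 11.21 on LD 14 against 11.89 to 12.10 on the other LD arrays and 11.96 to 12.27 in DD. RpL23, which lies on the face of the large subunit that meets the small one, stood at 9.62 on LD 14 and between 10.27 and 10.76 on every other array.

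Not every member followed. RpL3, which lies beside the site where peptide bonds form, had its highest level on LD 14 (12.38 log2, against 11.85 to 12.14 on the other LD arrays). RpLP0, the base of the stalk that recruits elongation factors, was at 12.06 there, within its range in LD of 11.48 to 12.39. RpL10Ab was at 11.71, between 11.27 and 11.86, and RpL17 at 12.43, the lowest of its LD values by a small step from 12.48. RpS7 had a narrow range throughout, from 11.44 to 11.86 over the 12 arrays.

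LD 10 was low for 14 members by more than 0.2 log2 (10.5% of all probe sets), and RpS5b, RpL36A, RpL39, RpS29 and RpL29 lay furthest down. RpS5b was at 6.94 there, the lowest of its 12 values. RpL36A was at 9.55 and 9.85 log2 on LD 10 and LD 14, against 10.30 to 10.99 on the other arrays. RpL39, a very small protein of the tunnel through which the new chain leaves, was at 9.67 and 9.84 on these arrays, against 10.53 to 11.05. RpL29 was at 10.17 and 9.92, against 10.92 to 11.38. RpS29 was at 6.25 and 6.67, against 6.82 to 7.52. For the last 4 genes LD 10 and LD 14 held the lowest values of the 12 arrays. DD 10 was not low for any of the 4, while DD 14 was lower than the other DD arrays for each, with 6.82 for RpS29 close to its 6.67 on LD 14.

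The arrays LD 2 and DD 14 split the members in 2 directions. This grouping was made after the values were seen and is given as a description. On both arrays, 7 members lay more than 0.2 log2 above their own median, namely RpLP0, RpLP1, RpLP2, RpL17, RpL37-1, RpL37A and RpS26. A further 13 lay that far below it on both arrays, namely RpL10Ab, RpL27, RpL36A, RpL39, RpL40, RpLP0-like, RpS12, RpS15, RpS18, RpS20, RpS27A, RpS28b and RpS30. The 7 held 6 large subunit genes and 1 small subunit gene, while the 13 held 6 and 7. Of all probe sets, 7.97% lay above on both arrays and 8.15% below on both. Taken singly, LD 2 had 15 members below and 7 above (13.6% and 13.8% of all probe sets), and DD 14 had 14 below and 11 above (13.1% and 13.9%).

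On DD 18, 4 members lay below and 10 above (12.3% and 13.1% of all probe sets), and on DD 22, 9 lay below and 5 above (16.3% and 12.8%). Of the 9, 7 were large subunit genes.

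All 3 stalk genes belonged to the group that was high on LD 2 and DD 14. RpLP1 and RpLP2, the acidic proteins of the stalk tip, varied alike over the arrays. RpLP2 was at 12.26, 11.34, 11.75, 10.84, 11.48 and 11.56 log2 in LD and at 11.45, 11.41, 11.59, 12.19, 12.17 and 12.66 in DD. RpLP1 was at 12.54, 11.81, 11.93, 11.23, 11.85 and 11.81 in LD and at 11.86, 11.72, 11.87, 12.52, 12.27 and 12.72 in DD. Both were thus low on LD 14 and high over the night hours of DD. RpLP0 differed from them late in the DD night, with 11.25 on DD 18 and 11.74 on DD 22, below its 12.57 on DD 14.

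The 2 genes that encode ubiquitin fused to a ribosomal protein, RpL40 in the large subunit and RpS27A in the small one, were in the opposite group. RpL40 was at 10.40 on LD 2 and 10.43 on DD 14, and RpS27A at 10.53 and 10.70. On LD 14 they were at 10.19 and 10.30, the lowest value of each gene, whereas their highest values were 11.32 on DD 10 for RpL40 and 11.29 on DD 18 for RpS27A. Ubiquitin coding sequence is shared with the polyubiquitin genes, so their probe sets may read transcripts of more than 1 gene.

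Control transcripts moved with the arrays that split the members. The signal of the 5′ minus the 3′ probe sets, averaged over actin, GAPDH and eIF-4a, was −2.02 log2 on LD 2, −1.89 on DD 14, −2.51 on DD 18 and −2.45 on DD 22. On the other 8 arrays it lay between −1.76 and −1.52. On LD 2 and DD 14 the actin signal (−2.05 and −1.96) and the GAPDH signal (−2.71 and −2.54) were low, while that of eIF-4a (−1.29 and −1.18) was the highest of the series. On LD 14 the mean signal was −1.52, equal to the highest of any array. The lowest signals, on DD 18 and DD 22, came with the highest RpLP2 level on DD 22 and with low RpL17 and RpL37-1 on both. The part of the control signal in the split of the members and in the low levels of LD 14 was not tested.

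The design asks whether transcripts in the head follow a daily rhythm, and the subunits were compared hour by hour for that purpose. Each member was centred on its mean over the 12 arrays. The large subunit then averaged 0.04, −0.02, −0.16, −0.45, 0.08 and 0.05 log2 at hours 2 to 22 of LD, and the small subunit −0.12, 0.05, −0.19, −0.51, 0.01 and 0.02. In DD the large subunit averaged 0.13, 0.07, 0.16, 0.09, 0.05 and −0.04, and the small subunit 0.10, 0.10, 0.24, 0.03, 0.18 and 0.08. The 2 curves ran close together in LD, with their lowest point at hour 14, and both averages were flatter in DD. That contrast rested mainly on LD 14. On the other LD arrays the large subunit lay between −0.16 and 0.08 and the small subunit between −0.19 and 0.05. An average also hides members that moved in opposite directions, as on DD 14, where 14 lay below their median and 11 above. No test was made of these averages, since they are scores over the members.

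**Figure D2:**
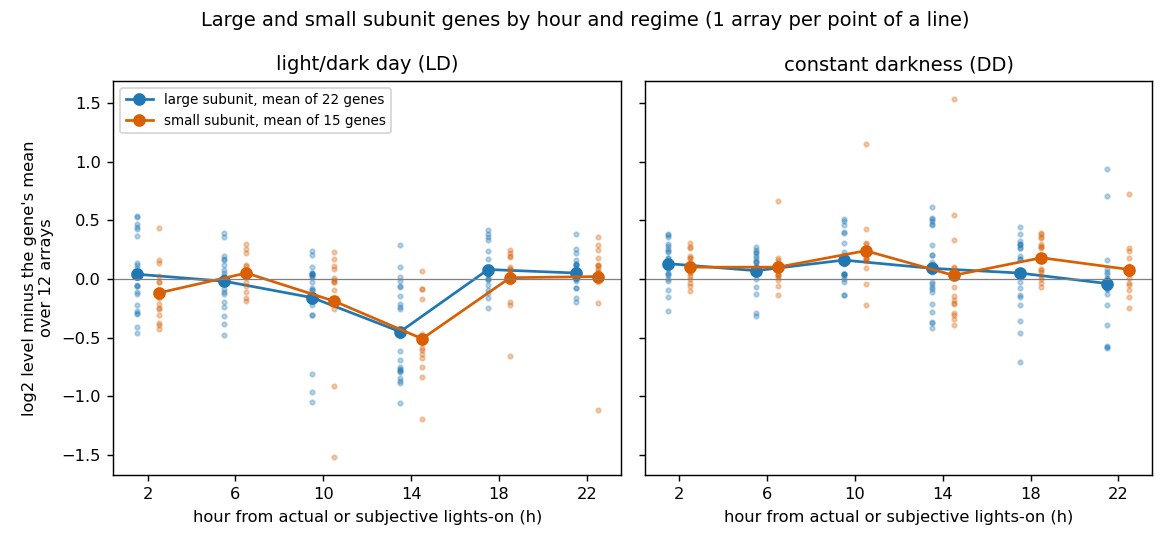
Mean level of the 22 large subunit genes (blue) and the 15 small subunit genes (orange) by hour, with each gene centred on its mean over the 12 arrays (log2) and shown as a pale point, LD on the left and DD on the right. Both means are lowest on LD 14, at −0.45 and −0.51, and lie between −0.04 and 0.24 on every DD array.

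The large minus the small subunit mean lay between −0.07 and 0.15 log2 in LD, with a mean of 0.04 ± 0.07 (SD, n = 6), and between −0.13 and 0.06 in DD, with a mean of −0.04 ± 0.08 (SD, n = 6). The highest value was that of LD 2 (0.15), and the lowest were those of DD 18 (−0.13) and DD 22 (−0.12), which are arrays of low 5′ signal. On LD 14 it was 0.05, near the middle of the LD values. Without RpS5b the means were 0.01 in LD and −0.01 in DD, so 1 gene made most of the small shift between the days. The highest value was then that of DD 14 (0.17), above that of LD 2 (0.14). The values of the 2 regimes overlapped.

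No member had a daily rhythm by the test over all probe sets. A cosine and a sine of 24 h were fitted to both days with a term for the regime, and 0 of 37 members passed (limma, Benjamini-Hochberg over 13966 probe sets, threshold 0.05), where 0.0215% of all probe sets did. None had an unadjusted p under 0.05 either (limma), where 4.68% of all probe sets did. Fitted amplitudes, from the mean to the peak, ran from 0.01 to 0.32 log2 with a median of 0.13, against a median of 0.07 over all probe sets. The largest were those of RpS29 (0.32 ± 0.13, SE), RpL39 (0.31 ± 0.14), RpL29 (0.30 ± 0.14) and RpL36A (0.30 ± 0.17), with fitted peaks at hours 23.6, 23.3, 23.8 and 0.202, and each of them had its lowest values on LD 10 and LD 14. The amplitude of RpS20 was 0.17 ± 0.09 and that of RpS15 0.13 ± 0.08, with peaks at hours 0.209 and 0.687. RpL3 was unlike these, with 0.17 ± 0.09 and a peak at hour 10.1. RpL7-like and RpS10a had amplitudes of 0.09 ± 0.04 and 0.07 ± 0.05. The adjusted p of all 37 members was 0.967 or more.

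Read along the dawn over dusk axis, the fitted level at hour 0 minus that at hour 12, the median member was at 0.16 log2, and 26 of 37 were above 0, against a median of 0.006 and 52.2% above 0 over all probe sets. This value rested on LD 14: without that array the median was 0.00 and 19 members were above 0 (50.6% of all probe sets). It was 0.27 without DD 10 and 0.25 without DD 22. No member passed adjustment (limma, 0 of 37, as against 0.0215% of all probe sets), and 2, RpS29 and RpL39, had an unadjusted p under 0.05 (5.41% of all probe sets), both with a higher value at dawn (2.34%). RpS29 was at 0.63 ± 0.25 (SE) and RpL39 at 0.62 ± 0.28, both with adjusted p = 0.891 in limma. RpL29 (0.61 ± 0.29), RpL36A (0.60 ± 0.34), RpS28b (0.37 ± 0.24), RpS20 (0.34 ± 0.19), RpS15 (0.26 ± 0.17) and RpL7-like (0.16 ± 0.08) had the next smallest p-values within their subunits. RpL3 was at −0.30 ± 0.18 and RpS5b at −0.37 ± 0.46.

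On the mid-day over mid-night axis, hour 6 minus hour 18, the median member was at 0.06 log2 with 28 of 37 above 0 (all probe sets −0.009, 46.7% above 0). Without LD 14 it was −0.01 with 16 above 0 (46.0% of all probe sets). The members' median was 0.01 without LD 6, 0.02 without DD 10 and 0.15 without LD 18. None passed adjustment or had an unadjusted p under 0.05 in limma (0.0% and 3.73% of all probe sets). RpL37-1 was at 0.36 ± 0.29 (SE), RpL17 at 0.28 ± 0.22, RpL24-like at 0.26 ± 0.18 and RpLP2 at −0.33 ± 0.34. In the small subunit RpS12 was at 0.16 ± 0.23, RpS7 at 0.09 ± 0.11, RpS28a at 0.06 ± 0.09 and RpS10a at −0.15 ± 0.09. Several of these signs turned with the handling of the 5′ signal. With that signal in the fit RpLP2 was at 0.28, RpL24-like at −0.01, RpS7 at −0.02 and RpS12 at −0.04, and without the 4 arrays of lowest signal RpLP2 was at 0.16, RpL17 at −0.01, RpL24-like at −0.02 and RpS7 at −0.02.

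The mean level over the dark day was then set against that over the day with light. The DD day always came second, so the effects of regime and of day order cannot be told apart. The fitted DD minus LD difference was above 0 in 31 of the 37 members, 17 of 22 in the large subunit and 14 of 15 in the small one, where 48.1% of all probe sets were above 0. The median was 0.19 log2 in each subunit, against −0.005 over all probe sets. No member was called (limma, 0 of 37, as against 0.15% of all probe sets), and 2 had an unadjusted p under 0.05, both higher in DD, where 6.82% of all probe sets had such a p and 2.79% were also higher. The LD and DD values overlapped in all 37 members, while 0.122% of all probe sets had every DD value above LD and 0.437% had every DD value below it. Leaving out LD 14 lowered the median to 0.09 log2, with 30 members above 0 (47.4% of all probe sets). Leaving out LD 2 or DD 10 lowered the median to 0.11. Markers of other tissues are given beside this. The 4 measured of 5 fat body markers averaged 8.58 to 9.11 in LD and 8.45 to 8.55 in DD. Among them, the larval serum protein gene Lsp2 fell by 1.19 ± 0.19 log2 (SE, adjusted p = 0.0335 in limma). The others had DD minus LD values of 0.10 (apolpp), −0.15 (Fbp1) and −0.13 (fat-spondin), so Lsp2 made most of the fall in the mean. The flight muscle markers had DD minus LD values below 0 in 6 of 6, with a wide spread in size. Act88F was at −1.17 ± 0.27 (SE), up at −0.92 ± 0.36, Mlc2 at −0.73 ± 0.16 and TpnC41C at −0.38 ± 0.36. Their adjusted p was 0.294, 0.654, 0.212 and 0.864 in limma, and 0 of the 6 markers passed. The dim fln and TpnC4 were near 0, at −0.09 ± 0.07 and −0.01 ± 0.06 (SE). The part of either tissue in the members' difference was not tested. In these bulk samples, fewer cells that express a gene and less RNA per cell cannot be told apart.

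**Figure D3:**
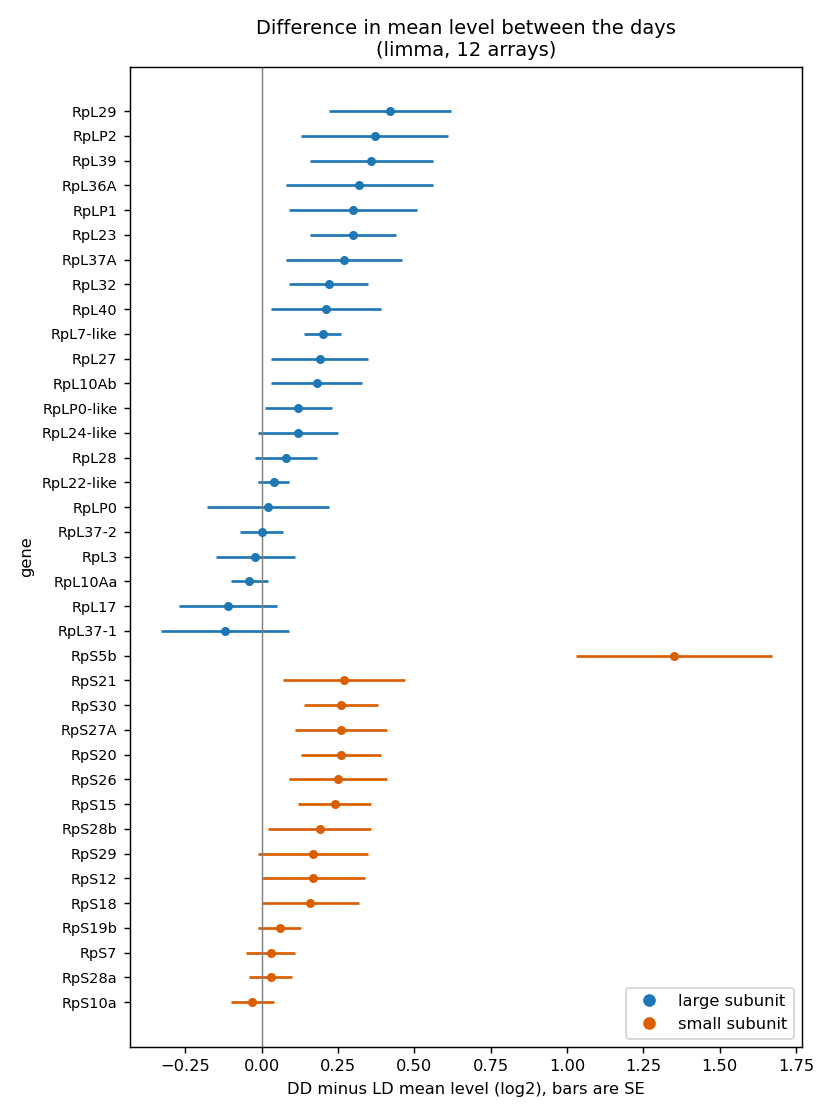
Fitted DD minus LD difference in mean level (log2) of each member with its standard error, large subunit in blue and small subunit in orange. Of 37 genes, 31 lie right of 0; RpS5b, at 1.35 ± 0.32, stands apart from the others, which lie between −0.12 and 0.42.

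RpS5b, the paralog of the small subunit protein S5 with its main known expression in the ovary, had the largest difference of the members. It was at 8.15, 8.68, 6.94, 7.78, 7.80 and 7.34 log2 in LD and at 8.35, 9.12, 9.61, 9.99, 8.54 and 9.18 in DD. At each of the 6 hours the DD array was the higher one, by 2.66 at hour 10 and 2.21 at hour 14, though the range of LD reached above the lowest DD value. The LD arrays averaged 7.78 ± 0.61 and the DD arrays 9.13 ± 0.62 (SD, n = 6 for each). The difference was 1.35 ± 0.32 log2 (SE, n = 6 and 6), a ratio of 2.54, with an unadjusted p of 0.00152 and an adjusted p of 0.343 in limma over all probe sets, so it did not pass. With single arrays left out it lay between 1.08 and 1.54.

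Ovary markers are given beside it. Of 10 listed, 8 were measured, and their mean level was 7.95 to 8.28 log2 in LD and 7.96 to 8.46 in DD. The germ line gene osk was at 3.55 to 4.74 in LD and at 3.99 to 5.84 in DD, with its highest value on DD 10 (DD minus LD 0.67 ± 0.26, adjusted p = 0.655 in limma). The germ line genes vas and bcd were at 3.04 to 3.72 and 2.95 to 3.72 in LD, and at 3.09 to 3.82 and 3.14 to 4.03 in DD. Both stayed below the array medians of 5.37 to 5.40, and osk rose above them on DD 10 only. Such dim probe sets may hold little signal of their gene. The yolk protein genes Yp1, Yp2 and Yp3, which the fat body of females also expresses, had DD minus LD values of −0.11, −0.20 and −0.07. The eggshell gene Cp36 was at −0.12 ± 0.05 (SE, unadjusted p = 0.0253, adjusted p = 0.652 in limma) and otu at 0.13 ± 0.07. Of the 8 markers, 1 (osk) was higher and 1 (Cp36) lower at an unadjusted p under 0.05, and 0 passed adjustment (limma). The part of ovary tissue in the RpS5b result was not tested.

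The other member with an unadjusted p under 0.05 was RpL7-like, whose counterpart in yeast is a ribosome assembly factor. It was at 6.32, 6.33, 6.35, 6.19, 6.35 and 6.54 log2 in LD and at 6.68, 6.59, 6.60, 6.38, 6.49 and 6.53 in DD. The difference was small, 0.20 ± 0.06 (SE), with an unadjusted p of 0.00695 and an adjusted p of 0.524 in limma over all probe sets. It lay between 0.17 and 0.23 with single arrays left out. Its DD value was the higher one at 5 of 6 hours. Among the 18 large subunit genes without -like in their symbols, 0 had an unadjusted p under 0.05 (limma). RpL29 (0.42 ± 0.20), RpL39 (0.36 ± 0.20), RpL23 (0.30 ± 0.14), RpS20 (0.26 ± 0.13), RpS30 (0.26 ± 0.12) and RpS15 (0.24 ± 0.12) had the next smallest p-values within their subunits, with adjusted p from 0.738 to 0.782. RpS30 is made as a fusion with a ubiquitin-like protein. The DD range of RpL29 was 10.94 to 11.38 and that of LD 9.92 to 11.34, so the regimes differed mainly in the low values of LD 10 and LD 14.

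Hour by hour, the share of members higher in DD was not even. It was 33 of 37 at hour 14 (53.3% of all probe sets), with a median difference of 0.49 log2 in the large subunit and 0.30 in the small one. At hour 10 it was 29 of 37 (41.5% of all probe sets), at hour 6 it was 28 (53.1%), at hour 2 it was 23 (47.0%) and at hour 18 it was 20 (51.3%). At hour 22 the order was the other way, with 9 of 37 members higher in DD (46.4% of all probe sets) and medians of −0.16 in the large and −0.07 in the small subunit. The subunits differed most in sign at hour 18, where 8 of 22 large subunit genes and 12 of 15 small subunit genes were higher in DD. Each of these comparisons rests on 1 array a side and has no replicate.

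Whether the daily curve itself differed between the regimes was tested with a separate curve for each day. No member passed (limma, 0 of 37, and 0.0% of all probe sets), and 5 had an unadjusted p under 0.05, where 9.96% of all probe sets did. They were RpL3, RpL23, RpLP1, RpLP2 and RpS26, with adjusted p from 0.421 to 0.491. RpLP1 had amplitudes of 0.41 log2 in LD and 0.44 in DD, with peaks at hours 2.24 and 18.5 and a difference of 0.72 ± 0.22 (SE). RpLP2 had 0.42 and 0.56, at hours 2.12 and 18.6. RpL3 had 0.17 and 0.36, at hours 15.4 and 8.19, so its order of hours was unlike that of RpLP1 and RpLP2 on either day. The third stalk gene, RpLP0, had 0.10 and 0.36, at hours 21.7 and 9.07, so its DD curve was close to that of RpL3. RpL23 had a difference of 0.47 ± 0.15, RpS26 one of 0.53 ± 0.18, RpS21 one of 0.61 ± 0.24 and RpS7 one of 0.22 ± 0.09. The count was 1 without LD 14 or without DD 6, 3 without DD 14, 9 without LD 10 or without LD 18 and 10 without LD 6. It was 0 once the 5′ signal entered the fit (limma). The share of all probe sets in these refits is not given here, so the counts cannot be set against it.

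**Figure D4:**
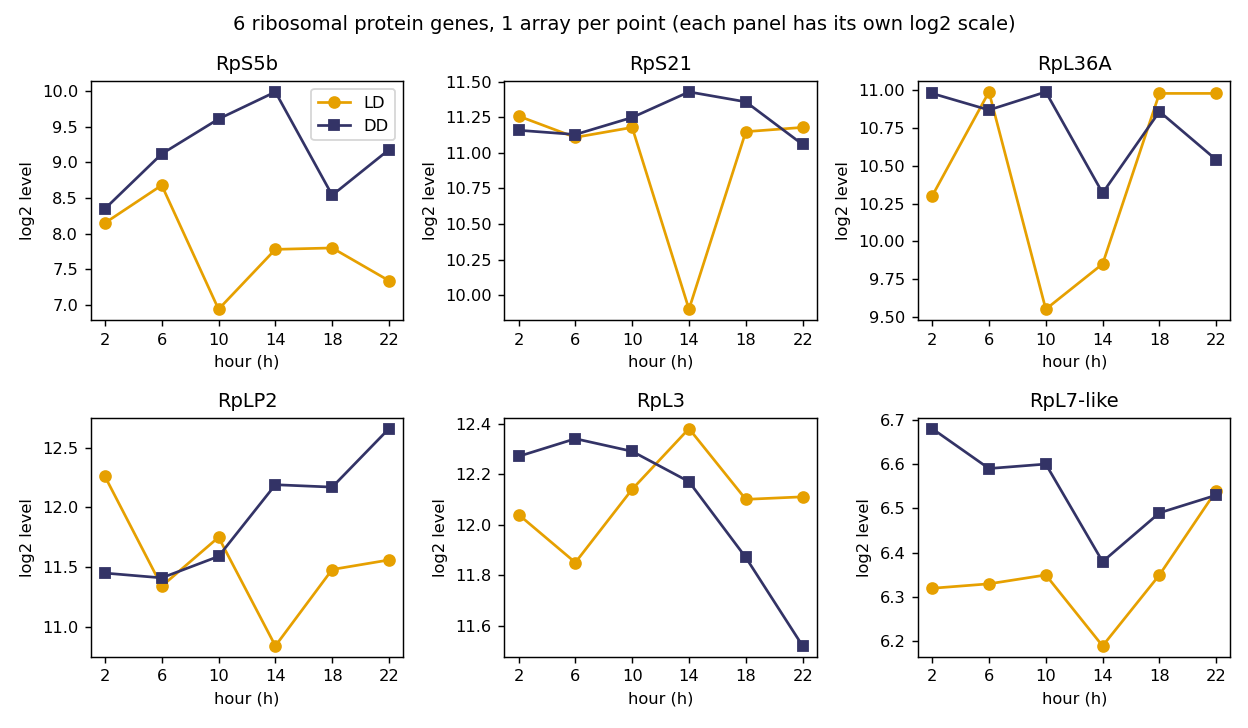
Log2 level of 6 members by hour in LD (yellow circles) and DD (dark squares), 1 array per point, each panel on its own scale. RpS21 has 1 low array (LD 14), RpL36A has 2 (LD 10 and LD 14), RpLP2 is highest on DD 22, RpL3 is highest on LD 14, and RpS5b and RpL7-like are higher in DD at 6 and 5 of 6 hours.

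Some genes of the rule belong to pairs of closely similar genes, and the measured partners had unlike ranges. RpS28b ranged from 10.50 to 11.63 log2 with its lowest value on LD 14, while RpS28a stayed between 5.51 and 5.85. RpL37-1 ranged from 10.60 to 11.89 and RpL37-2 from 7.04 to 7.39. RpL10Ab ranged from 11.27 to 12.22 and RpL10Aa from 2.43 to 2.76. Levels of different probe sets cannot be ranked against each other, and probes of such pairs may pick up transcripts of both genes. RpS19b, a germ line paralog, ranged from 5.19 to 5.65, RpS10a from 4.46 to 4.86 and the testis paralog RpL22-like from 3.55 to 3.74. The DD minus LD values of RpS19b, RpS10a, RpL22-like, RpS28a, RpL37-2 and RpL10Aa lay between −0.04 and 0.06. RpL10Aa, RpL22-like and RpS10a stayed below the array medians of 5.37 to 5.40, and RpS19b lay near them. Such dim probe sets may hold little signal of their gene, so their narrow ranges and small differences need not mean stable expression. RpL24-like and RpLP0-like, whose yeast counterparts act in ribosome assembly, had 0.12 ± 0.13 and 0.12 ± 0.11.

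Other genes of the protein synthesis machinery were listed for comparison, and their shifts are given beside the members' median of 0.19 log2. Of 64 mitochondrial ribosomal protein genes, 0 were called for the DD minus LD difference in limma, 5 were higher and 1 lower at an unadjusted p under 0.05, and 49 were above 0 with a median of 0.06 log2. LD 14 was the lowest array for 21 of these 64, and their mean level was 6.28 on LD 14 against 6.33 to 6.49 on the other arrays. Of 42 translation initiation and elongation factor genes, 0 were called, 2 were higher at an unadjusted p under 0.05 (limma), and the median was 0.02, with LD 14 the lowest array for 1 gene. Of 15 measured of 17 ribosome assembly genes, 0 were called and 2 were higher at an unadjusted p under 0.05. These were Fib, the methyltransferase fibrillarin, at 0.47 ± 0.15 (adjusted p = 0.548), and Nop56, its partner, at 0.27 ± 0.08 (adjusted p = 0.524 in limma). Of 11 measured of 16 genes of the TOR pathway and of ribosomal protein gene regulators, 0 were called and 0 had an unadjusted p under 0.05 (limma), with a median of 0.05. Rack1, a small subunit protein outside the naming rule, was at 11.41 to 11.76 in LD and 10.99 to 11.85 in DD, and stood at 11.61 on LD 14.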

How the data were processed

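The deposited values were log2 expression levels made by the authors with RMA, per the submitters' processing notes. Neither its version nor whether further arrays entered that normalization is given in the sources used here. There were 14010 probe sets, of which 13966 remained after 44 controls were set aside. Genes were named through the platform table and updated by gene identifier, and 12443 probe sets carried 1 symbol, 327 several and 1196 none. No filter was applied. limma 3.58.1 in R 4.3.3 was fitted to all 13966 probe sets with a cosine and sine of 24 h and the regime, or with a curve per regime, with Benjamini-Hochberg adjustment. The script was tested on simulated data. The number of arrays limits the precision, and with 1 pool per time point the p-values reflect only how these 12 arrays scatter, which may be technical. Members, lists and tests were chosen with earlier results of these data known. Named members were those with the 4 smallest p per subunit and test (3 for the difference of curves), paralogs, stalk and ubiquitin fusion genes. The members described for LD 10, LD 14, LD 2 and DD 14 were chosen after their values were seen. No sequences were used here.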

Additional observations from a re-analysis of the deposited data

Results flagged for a closer look

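The levels of the 37 members and the 3 subunit summaries in LD and in DD made 80 groups of 6 arrays. In 10 of them Dixon's test found an array far from the rest. For independent groups of replicates chance gives about 1 in 20. These groups share the same arrays, and the 6 values of each are 6 different hours, so the count cannot be set against that rate. Of these, 6 were low values on LD 14. RpS21 was at 9.90 log2 there (nearest LD value 11.11), RpL37-1 at 10.60 (11.49), RpL32 at 11.21 (11.89), RpL23 at 9.62 (10.27), RpS20 at 11.37 (11.93) and RpL28 at 10.07 (10.57). RpL17 was high on LD 2, at 12.87 (nearest LD value 12.54). RpL10Aa (2.76, nearest 2.54) and RpS28a (5.85, nearest 5.64) were high on LD 10, and RpS19b was high on DD 22 (5.65, nearest 5.42).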

How the results depend on the processing

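With every alternative tried, 0 members passed adjustment in any of the 5 tests (limma). Counts of members at an unadjusted p under 0.05 were small and moved. For the daily rhythm the count was 1 with quantile normalization again and 5 with hour as a factor, and 0 to 1 with single arrays left out (1 without LD 6, DD 10 or DD 22). For dawn over dusk it was 1 in the brighter probe sets (32 members left), 1 with a robust, intensity-dependent prior, 5 with the 5′ signal as a covariate and 1 in a fit lacking the 4 arrays of lowest 5′ signal (chosen after the data were seen), and 0 to 5 with single arrays left out (0 without LD 14, LD 22 or DD 14, 1 without LD 10, DD 6 or DD 18, 4 without LD 2 or DD 22, 5 without DD 10). The dawn over dusk median lay between 0.00 and 0.27 log2 with single arrays left out (large subunit 0.00 to 0.23, small subunit 0.00 to 0.30, each lowest without LD 14), and the small subunit median was 0.34 without the 4 arrays. For mid-day over mid-night the count was 0 to 2 with single arrays left out (1 without LD 10, 2 without DD 14). With the 5′ signal as a covariate the mid-day values of RpL24-like (−0.01), RpS7 (−0.02), RpS12 (−0.04) and RpLP2 (0.28) changed sign, and, lacking the 4 arrays, so did those of RpL24-like (−0.02), RpL17 (−0.01), RpS7 (−0.02) and RpLP2 (0.16); the cause was not tested. For DD minus LD the count was 6 with quantile normalization again, 6 with the 5′ signal as a covariate, 6 with hour of day as a replicate block and 6 lacking the 4 arrays, and 2 to 8 with single arrays left out (8 without LD 18, 7 without LD 2 or LD 6, 6 without DD 22 and 4 without DD 14). The arrays share hours, not pools, so the block was not treated as a pairing. Of all probe sets, 5.83% had such a p with the covariate, 7.08% lacking the 4 arrays and 10.1% without LD 2. For dawn over dusk these shares were 4.72%, 5.74% and 7.37%, with 7.78% without LD 10 and 2.81% without LD 14. For mid-day over mid-night the share was 6.24% without LD 10. Shares in the other refits are not given here, so those counts cannot be set against them. For the difference of curves the count was 0 with that prior and 0 with the covariate, and 1 to 10 with single arrays left out. The DD minus LD median of the members stayed between 0.09 and 0.24 log2 with single arrays left out. Each gene had 1 probe set, so averaging probe sets left the members' values as they were.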

Other observations

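The array also held 3 control probe sets of 18S rRNA, the RNA of the small subunit. Its middle probe set was at 5.29, 7.24, 3.93, 5.24, 6.77 and 5.88 log2 at hours 2 to 22 of LD and at 6.87, 5.05, 6.95, 4.47, 5.33 and 5.06 in DD. The lowest values were those of LD 10 and DD 14 and the highest those of LD 6 and DD 10. The 3′ probe set ranged from 4.17 on LD 14 to 6.49 on DD 10, and the 5′ probe set from 2.67 on LD 14 to 4.14 on LD 6.

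A pair of probe sets named a ribosomal protein gene together with another gene and stayed outside the rule. That shared by RpLP0 and euc was at 6.29 to 7.39 log2 in LD and 6.64 to 7.05 in DD, with its lowest values on LD 10 (6.29) and LD 14 (6.45), where the probe set of RpLP0 alone was at 12.00 and 12.06. That shared by RpL36A and CG14645 was at 3.25 to 3.47 in LD and 3.16 to 3.32 in DD.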
